A study of Homo sapiens with 9 samples.

Results

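ESO-26 and OE33 are established human cell lines of oesophageal adenocarcinoma, the gland-forming cancer that arises near the junction of oesophagus and stomach. They are 2 of the 9 such lines whose RNA was sequenced, and they were chosen by their low measured levels of genes that mark epithelial cells, the lowest of the 9 libraries. The choice used expression in these same libraries, so the low epithelial levels below are a description of how the pair was picked. All genes of the table were compared between the 2 libraries, and the libraries of the other lines (FLO-1, OE19, OACP4_C, OAC_5.1_C, SK-GT-4, JH_EsoAd1 and ESO-51), called the other 7 below, show for each gene which of the pair held the unusual level. Per the labels, every line was cultured without treatment, carries the cell type oesophageal adenocarcinoma with gastric cardia adenocarcinoma as its source, and was harvested for total RNA from a culture near confluence. The design text speaks of 3 technical replicates per line, but the table holds 1 column per line. Each line therefore gave 1 value per gene, no difference has a replicate check, and no test between the lines was possible. Intervals given with a value cover counting error only.

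Epithelial cells of the gut lining are held together by E-cadherin, claudins and desmosomes, contain the keratins KRT8, KRT18 and KRT19, and are kept in that state by transcription factors such as ELF3, EHF and GRHL2. Carcinoma cells can lose much of this apparatus and gain genes of connective tissue cells, a shift called epithelial-mesenchymal transition. Carcinoma cells also differ in how active their interferon response is, the antiviral programme driven by transcription factors such as STAT2 and IRF9, and in the oxidative stress programme driven by the transcription factor NRF2.

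Levels are read counts relative to library size (CPM, scaled for library composition), and differences are ESO-26 minus OE33 on the log2(CPM + 1) scale, which understates changes of weakly expressed genes. A gene counted as measured when it reached 1 CPM in at least 1 of the 2 libraries, and as called when the difference was at least 2 and the higher library reached 5 CPM. The ESO-26 column held 16801179 counts and the OE33 column 24165042. The limit set here for a count of 0, 3 counts, therefore corresponded to 0.173 CPM in ESO-26 but 0.113 CPM in OE33. Mitochondrial genes took 1.48% of the ESO-26 counts and 7.04% of the OE33 counts. The sum over 10 epithelial markers was 168 CPM in ESO-26 but 1207 CPM in OE33, against 4286 to 15171 CPM in the other 7. The sum over 8 mesenchymal markers was 4221 CPM in ESO-26, the highest of the 9, and 726 CPM in OE33, against 14.6 to 2427 CPM in the other 7. Single genes made up most of both sums. For the epithelial markers these were KRT19 in ESO-26 and KRT8 in OE33. For the mesenchymal markers they were FN1 in ESO-26 and VIM in OE33, and VIM was lower in ESO-26 than in OE33. Of 6 haematopoietic markers, 4 were at 0 counts in both libraries, and the ESO-26 sum of 25.8 CPM came almost wholly from CD14 at 25.4 CPM. Endothelial and germ cell markers summed to under 1 CPM in both libraries, and muscle markers were at 0 counts in ESO-26 and at 0.0754 CPM in OE33. Neural markers summed to 15.4 in ESO-26 and 105 CPM in OE33, of which NCAM1 made up 6.40 and 85.7 CPM, where the other 7 held 0 to 4.02 CPM.

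The names of the lines are those of the labels. OE33 is commonly described as an epithelial line with amplified ERBB2 and MET, whereas the library labelled OE33 held MET at 57.7 CPM and ERBB2 at 149 CPM, each below all of the other 7. Whether the label and the cells match was not tested, and no library was reassigned.

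Of 15634 measured genes, 1914 (12.2%) were called. Genes higher in ESO-26 numbered 751 (4.8%) and genes higher in OE33 1163 (7.44%), so 39.24% of called genes were higher in ESO-26. In the authors' FPKM values, which are counts per length and depth, this split turned, with 59.07% of called genes higher in ESO-26. There the median difference of all genes moved by 0.33. With FPKM rescaled to equal sums, chosen after seeing the data, the share was 39.8%. By the number of called genes each was the closest line to the other. The other 7 pairs with ESO-26 had 2262 to 2753 called genes and the other 7 pairs with OE33 had 1932 to 2674, although the share of measured genes called was lower for JH-EsoAd1 and OE33 than for ESO-26 and OE33. Among the 36 pairs of the 9 libraries the number of called genes ran from 1229 to 2753 with a median of 2036, and 11 pairs had fewer called genes than ESO-26 and OE33. The genes closest to the threshold were BCKDHB (126 CPM in ESO-26, 30.8 in OE33), LCORL (57.3 and 13.6 CPM) and SMAD7 (0.577 and 5.32 CPM) just inside it, and ABR (32.9 and 134 CPM), ARSD (17.3 and 72.0 CPM) and FZD4 (2.19 and 11.7 CPM) just outside it.

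**Figure D1:**
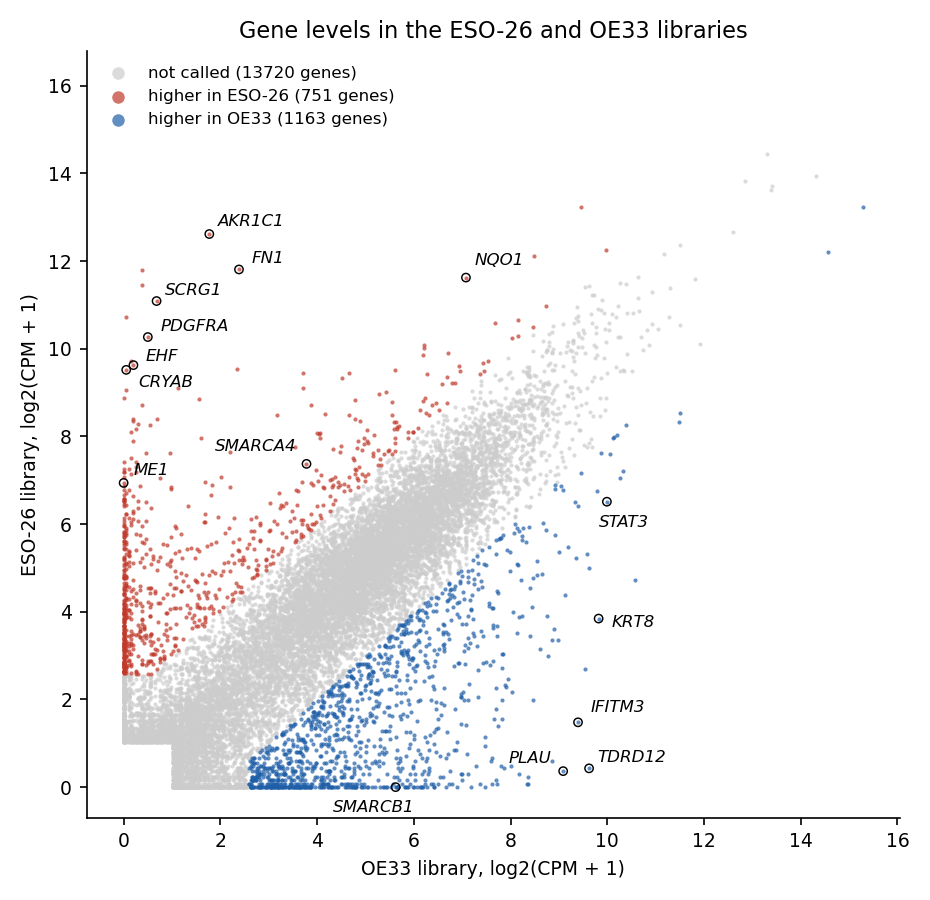
Level of every measured gene in the OE33 library (horizontal axis) and the ESO-26 library (vertical axis), both as log2(CPM + 1), with 1 point per gene. Red points are the 751 genes called higher in ESO-26 and blue points the 1163 called higher in OE33; AKR1C1, FN1 and SCRG1 lie far to the upper left, and IFITM3, PLAU and TDRD12 far to the lower right.

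The direction of a call and the library that was unusual did not always coincide. Of the 751 genes higher in ESO-26, ESO-26 alone lay outside the range of the other 7 for 366, OE33 alone for 143, both for 90 and neither for 152. Of the 1163 genes higher in OE33, OE33 alone lay above the other 7 for 378, ESO-26 alone lay below them for 442, both held for 125 and neither for 218. Over all measured genes, ESO-26 lay below the other 7 for 16% and above them for 20.3%, and OE33 below for 12.2% and above for 18.8%. Genes higher in OE33 thus included 567 at which ESO-26 held the lowest level of all 9 libraries.

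The gene lists used below are summarised by how many of their measured members were called each way and by their median difference, beside the shares of 4.8% and 7.44% and the median of -0.03 over all measured genes. Of 54 lists, 22 had a median of -1 or lower, that is higher in OE33, and 2 had a median of 1 or higher. Among lists of 10 or more measured members, and net of members called the other way, interferon response genes, cancer-testis antigens, chemokines and YAP target genes had the largest shares higher in OE33. NRF2 targets and enzymes that make NADPH had the largest net share higher in ESO-26.

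**Figure D2:**
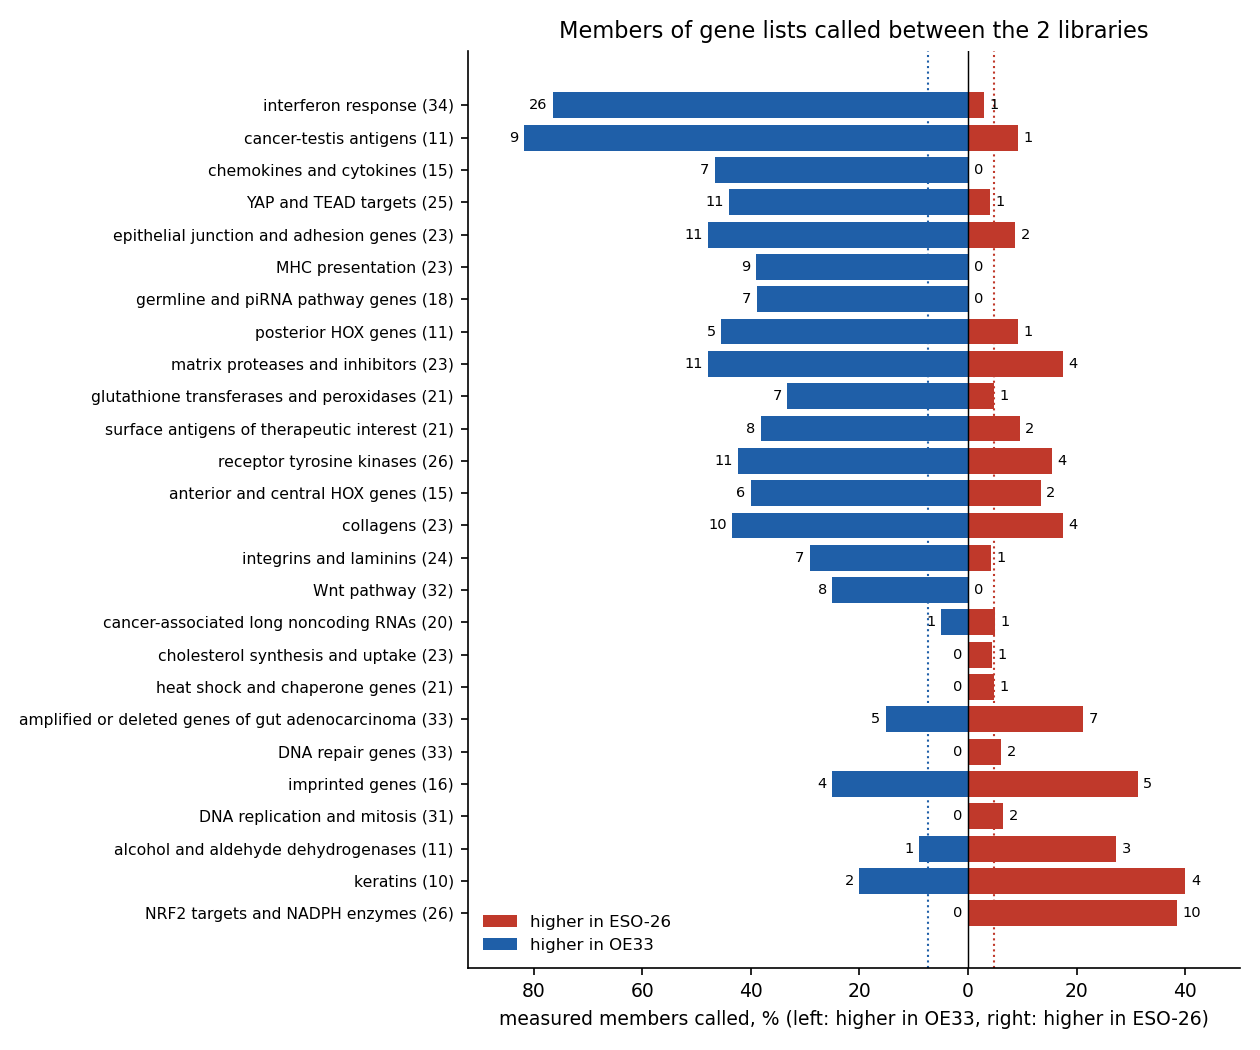
Share of the measured members of each gene list called higher in OE33 (blue, to the left) and higher in ESO-26 (red, to the right), in percent, with the number of called members at the bar ends and the number of measured members in brackets. The 16 lists most tilted to OE33 and the 10 most tilted to ESO-26 are drawn, of those with at least 10 measured members, and dotted lines mark the shares over all measured genes; the interferon response bar, with 26 of 34 members, is among the longest, and NRF2 targets, with 10 of 26, are at the foot.

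The interferon response separated the 2 lines. Of 34 measured interferon-stimulated genes, 26 were higher in OE33, 1 was higher in ESO-26 and the median difference was -4.47. ESO-26 lay below all of the other 7 for 18 of them and OE33 above all for 11, so low levels in ESO-26 and high levels in OE33 both contributed. ISG15, a ubiquitin-like protein that is attached to other proteins during the antiviral response, stood at 3.00 in ESO-26 and 350.1 CPM in OE33, with 18.5 to 188 CPM in the other 7 (difference -6.46). The dynamin-like antiviral protein MX1 was at 0.404 CPM in ESO-26 against 221 CPM in OE33, and its neighbour MX2 had 0 counts in ESO-26 and 30.4 CPM in OE33, at least 176-fold higher. IFIT1, which binds foreign RNA, was 3.81 against 207 CPM. The sensors of double-stranded RNA DDX58 (RIG-I) and IFIH1 (MDA5) were 3.86 and 1.96 CPM in ESO-26 against 237 and 89.2 CPM in OE33. ESO-26 was the lowest of the 9 libraries for ISG15, MX1, MX2, DDX58 and IFIH1, whereas for IFIT1 the lowest of the other 7 held 0.0965 CPM. OE33 was the highest of the 9 for ISG15, DDX58 and IFIT1 but not for MX1, which reached 444 CPM elsewhere.

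The 2'-5' oligoadenylate synthetases, which start RNA decay in infected cells, moved as a family. OASL stood at 2 counts in ESO-26 and 127 CPM in OE33, OAS3 at 5.88 and 189.5 CPM, OAS1 at 0.461 and 17.2 CPM, and OAS2 at 0 counts and 10.5 CPM. The membrane proteins IFITM1, IFITM2 and IFITM3, which hinder viral entry, were 0.346, 0.231 and 1.79 CPM in ESO-26 against 23.0, 64.2 and 672 CPM in OE33, although reads of these near-identical genes may be shared among them. Of the transcription factors of the pathway, STAT2 was 45.6 in ESO-26 and 177 CPM in OE33 (difference -1.93, not called), and IRF9 was 1.21 and 2.38 CPM (-0.61, not called). IRF1 and IRF7, factors that are themselves induced by interferon, were 5.82 and 3.34 CPM in ESO-26 against 84.4 and 125 CPM in OE33. The exceptions were SAMD9L, a growth-restraining gene at 15.9 CPM in ESO-26 against 1.58 CPM in OE33, and IFI27, BST2, XAF1, IFI44 and SAMD9, which were not called and stood no higher than 5.20 CPM in either library. For IFI27, the other 7 had a median of 136 CPM, so OE33 at 2.07 CPM was low for this member.

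Promoter sequences are printed for 4 of the interferon-stimulated genes higher in OE33, because the motif that complexes of STAT2 and IRF9 recognise can be seen in them. They are 300 bases from RefSeq on build GRCh38.p14, from 250 bases before to 50 after the start of the gene, read 5′ to 3′ on the strand of the gene. Capitals mark matches to GAAANNGAAA or its reverse complement, where overlapping matches run together. ISG15 lies at chr1:1013247-1013546 on the plus strand, IFI6 at chr1:27672143-27672442 on the minus strand, IFIT1 at chr10:89392373-89392672 on the plus strand and IFIH1 at chr2:162318635-162318934 on the minus strand.
ISG15: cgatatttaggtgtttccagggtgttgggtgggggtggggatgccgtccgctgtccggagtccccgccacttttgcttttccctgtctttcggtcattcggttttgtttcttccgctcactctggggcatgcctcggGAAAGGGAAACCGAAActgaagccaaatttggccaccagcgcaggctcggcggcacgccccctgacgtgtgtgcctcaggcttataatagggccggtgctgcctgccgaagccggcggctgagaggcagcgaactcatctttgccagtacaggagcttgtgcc
IFI6: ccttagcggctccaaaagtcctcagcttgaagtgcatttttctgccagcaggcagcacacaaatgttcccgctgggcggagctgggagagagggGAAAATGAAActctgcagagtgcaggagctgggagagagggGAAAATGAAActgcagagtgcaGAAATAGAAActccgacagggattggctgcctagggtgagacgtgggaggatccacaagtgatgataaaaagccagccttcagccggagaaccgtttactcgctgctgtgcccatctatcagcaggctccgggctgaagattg
IFIT1: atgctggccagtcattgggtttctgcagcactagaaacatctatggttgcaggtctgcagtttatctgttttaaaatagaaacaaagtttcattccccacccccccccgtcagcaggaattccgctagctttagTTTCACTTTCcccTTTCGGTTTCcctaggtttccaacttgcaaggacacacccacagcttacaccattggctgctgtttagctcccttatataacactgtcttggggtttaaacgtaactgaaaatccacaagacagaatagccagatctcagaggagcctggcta
IFIH1: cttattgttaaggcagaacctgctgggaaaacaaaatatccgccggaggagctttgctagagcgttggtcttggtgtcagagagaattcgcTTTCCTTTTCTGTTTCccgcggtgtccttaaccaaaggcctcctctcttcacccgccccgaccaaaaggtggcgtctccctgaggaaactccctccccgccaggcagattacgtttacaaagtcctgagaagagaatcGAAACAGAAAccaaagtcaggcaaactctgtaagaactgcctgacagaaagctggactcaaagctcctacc
The ISG15 window held 2 overlapping matches, the IFIT1 window 2, and the IFI6 and IFIH1 windows 3 each. Among the interferon response genes 25 had a promoter in the table, and 15 of the 25 held a match, as did 11 of the 18 that were called. Of all 27305 promoters of this length, 996 (3.65%) held one. IFI6, an interferon-induced mitochondrial protein, was 4.04 in ESO-26 and 234 CPM in OE33. The OAS1, IFI35 and RSAD2 windows held no match, and these genes were also called higher in OE33, with IFI35 at 3 counts in ESO-26 and 96.8 CPM in OE33.

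Genes upstream of the response, chosen after their values were seen, differed as well. The type I interferon receptor chains IFNAR1 and IFNAR2 were 39.7 and 5.02 CPM in ESO-26 against 99.3 and 22.4 CPM in OE33, and the kinase JAK1 was 98.0 and 341 CPM; none of these was called. STAT3, which relays signals of interleukin-6 type cytokines, was 90.3 CPM in ESO-26, below the other 7 (132 to 297 CPM), and 1017 CPM in OE33, above them. SOCS3, a feedback inhibitor induced by STAT3, was 0.634 against 91.7 CPM. The related inhibitor SOCS1, which restrains interferon signalling, went the other way, at 25.3 CPM in ESO-26 against 1.77 CPM in OE33, and ESO-26 was above all of the other 7. STING1, the adaptor of cytosolic DNA sensing, had 1 count in ESO-26 and 9.99 CPM in OE33, a ratio of 173 with a counting interval of 30.8 to 6870. The interferon gene IFNB1 had 0 counts in both libraries, so at most 0.173 in ESO-26 and 0.113 CPM in OE33.

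**Figure D3:**
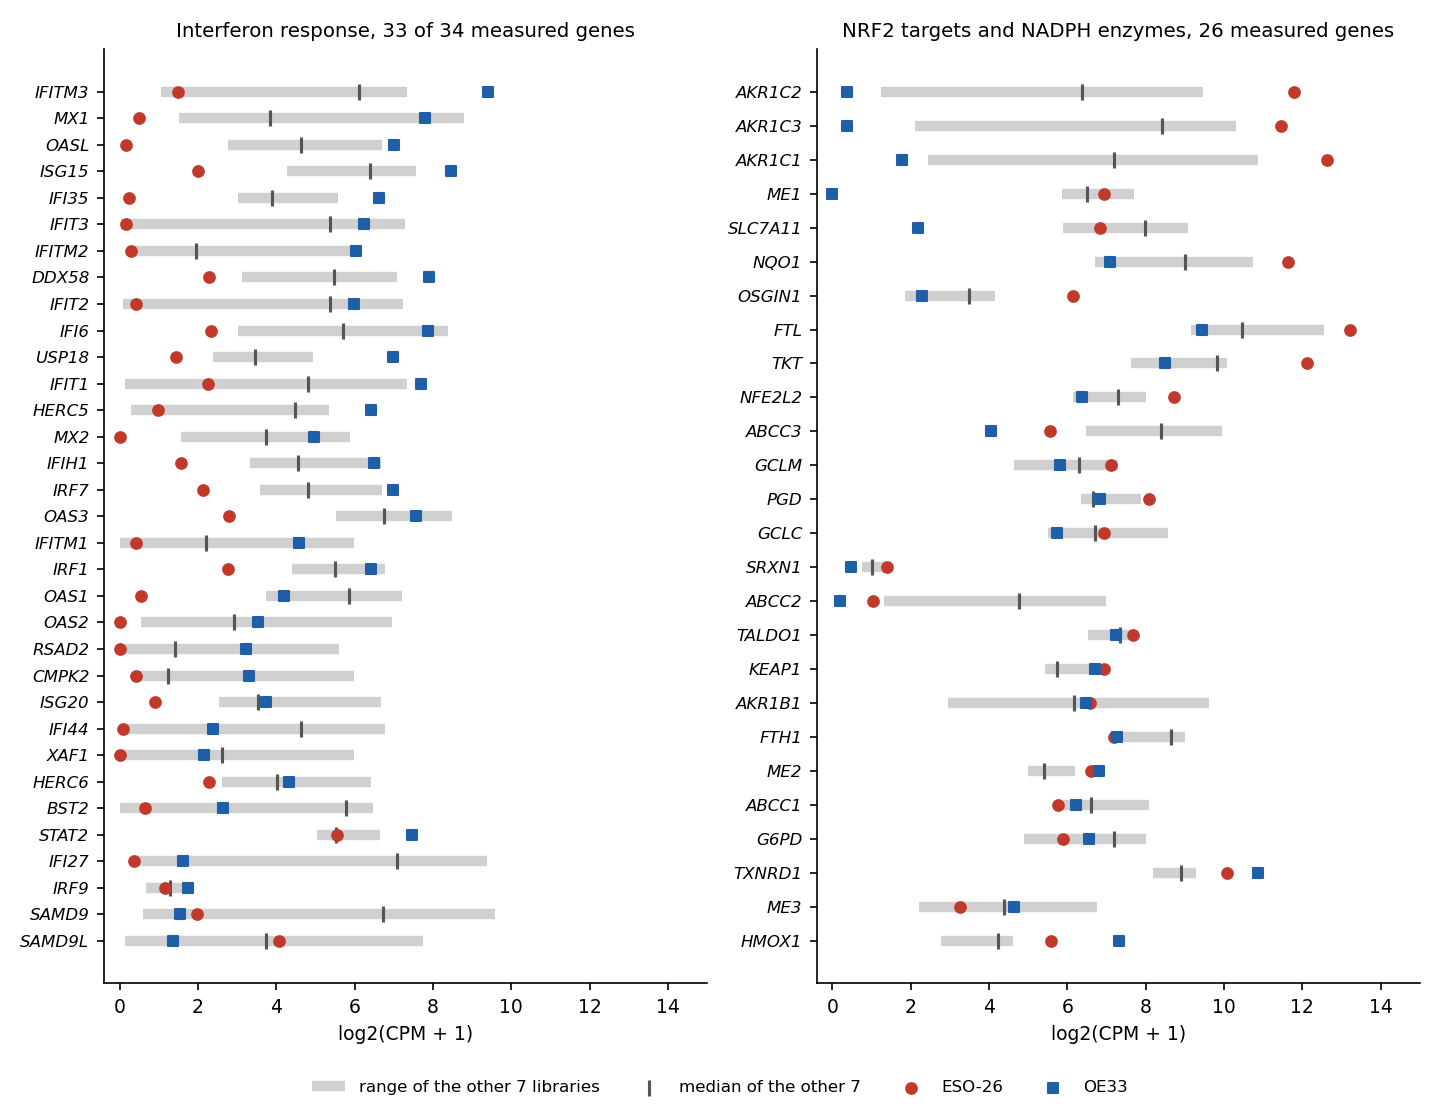
Levels of 33 of the 34 measured interferon response genes (left) and the 26 measured NRF2 targets and NADPH enzymes (right) as log2(CPM + 1), with red circles for ESO-26, blue squares for OE33, a grey bar for the range of the other 7 libraries and a tick for their median. Most blue squares on the left lie to the right of the red circles, by up to 7.92 for IFITM3, and the 3 AKR1C genes at the top of the right panel show the widest gaps in the opposite direction.

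Antigen presentation and chemokine genes leaned the same way as the interferon genes. Of 23 measured genes of MHC presentation, 9 were higher in OE33 and none in ESO-26, with a median of -1.95. The immunoproteasome subunits PSMB8 and PSMB9, which cut proteins into peptides for MHC class I, were 0.577 and 1.21 CPM in ESO-26 against 76.1 and 73.7 CPM in OE33, and the peptide transporter TAP1 was 25.8 and 149.5 CPM. These 3 genes are neighbours on chromosome 6. NLRC5, the activator of class I transcription, was 1.04 CPM in ESO-26, below the other 7, and 28.0 CPM in OE33. The class I gene HLA-B was 64.2 and 408 CPM, and its reads may be shared with related genes. The class I light chain B2M was 467 and 925 CPM and was not called. Of 15 chemokine and cytokine genes, 7 were higher in OE33 and none in ESO-26, with a median of -1.87. CCL2, which attracts monocytes, had 2 counts in ESO-26 and 207 CPM in OE33, against at most 0.0713 CPM in the other 7. CCL28, a chemokine of mucosal epithelia, had 1 count and 89.2 CPM. BIRC3, an apoptosis inhibitor induced by NF-kappaB, was 0.807 CPM in ESO-26, the lowest of the 9, and 112 CPM in OE33, and the adhesion molecule ICAM1 was 0.404 and 256 CPM, with at most 52.1 CPM in the other 7.

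The oxidative stress programme ran in the opposite direction. Of 26 measured NRF2 targets and NADPH enzymes, 10 were higher in ESO-26 and none in OE33, with a median of 1.22. ESO-26 was above all of the other 7 for 13 of them. The largest difference of any protein-coding gene was in AKR1C2, an aldo-keto reductase of steroid and aldehyde metabolism, at 3551 in ESO-26 and 0.302 CPM in OE33 (difference 11.41). AKR1C3 stood at 2804 and 0.302 CPM and AKR1C1 at 6288 and 2.41 CPM, and reads of these near-identical genes may be shared. In the other 7 the AKR1C1 level ran from 4.38 to 1875 CPM, so ESO-26 was above the range and OE33 below it for all 3 genes. The quinone reductase NQO1 was 3158 CPM in ESO-26 against 134 CPM in OE33, where the other 7 held 102 to 1706 CPM. Ferritin light chain FTL, an iron store with many pseudogenes, was 9594 and 697 CPM. Transketolase TKT, of the pentose phosphate pathway, was 4446 and 357 CPM, and OSGIN1, a growth inhibitor induced by oxidative stress, was 69.1 and 3.85 CPM. For NQO1, FTL, TKT and OSGIN1, OE33 lay within the range of the other 7, so the unusual level was that of ESO-26. NFE2L2, the gene of NRF2 itself, was 419 CPM in ESO-26, above the other 7, and 82.0 CPM in OE33, and its inhibitor KEAP1 was 122 and 103 CPM and was not called.

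Some members differed because OE33 was low. The malic enzyme ME1, which makes NADPH in the cytosol, had 0 counts in OE33 and 122 CPM in ESO-26, within the 56.9 to 208 CPM of the other 7, so it was at least 1077-fold higher in ESO-26. The cystine transporter SLC7A11 was 114 in ESO-26 and 3.58 CPM in OE33, below all of the other 7 (58.3 to 538 CPM). Other targets moved little or leaned to OE33 without being called. The glutathione synthesis genes GCLM and GCLC were 138 and 122 CPM in ESO-26 against 55.6 and 52.7 CPM in OE33, and thioredoxin reductase TXNRD1 was 1083 and 1869 CPM, above the other 7 in both. Haem oxygenase HMOX1 was 46.5 CPM in ESO-26 against 159 CPM in OE33, also above the other 7 in both. The ME1 promoter is printed because ME1 was the only called gene of the list whose window held the antioxidant response motif TGACNNNGC. It lies at chr6:83431002-83431301 on the minus strand in the same RefSeq build, with the matches on both strands in capitals.
ME1: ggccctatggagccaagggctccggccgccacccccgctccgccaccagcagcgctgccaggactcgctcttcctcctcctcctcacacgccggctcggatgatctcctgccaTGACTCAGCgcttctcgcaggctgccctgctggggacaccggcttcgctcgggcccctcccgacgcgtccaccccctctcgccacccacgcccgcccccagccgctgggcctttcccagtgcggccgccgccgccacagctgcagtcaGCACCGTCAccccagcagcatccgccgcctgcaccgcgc
This motif was held by 4 of the 20 list members with a RefSeq promoter, among them 1 of the 9 called genes. Of all 27305 promoters, 3702 (13.6%) held it. Matches outside the window were not searched for, so a window without a match does not show that the gene lacks the motif.

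Metallothioneins and a glutathione transferase leaned to OE33 instead. Of 21 genes of glutathione transferases, peroxidases and metallothioneins, 7 were higher in OE33 and 1 in ESO-26, with a median of -0.73. The metal-binding protein MT2A was 2.42 in ESO-26 and 206 CPM in OE33, and its neighbours MT1E and MT1M had 0 counts in ESO-26 and 118 and 11.8 CPM in OE33. Reads of the metallothionein genes may be shared, and 6 neighbouring members of this family on chromosome 16 were all called higher in OE33. GSTM3 had 0 counts in ESO-26 and 50.3 CPM in OE33, whereas the microsomal transferase MGST1 was 33.8 CPM in ESO-26 against 0.151 CPM in OE33.

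Receptor tyrosine kinases, which relay growth factor signals, showed an exchange of receptors. Of 26 measured, 4 were higher in ESO-26 and 11 higher in OE33, with a median of -1.73. In the authors' FPKM the calls of ERBB4, ERBB2, ERBB3, ROR1, ROR2, RET, FLT4, PDGFRB, AXL and MERTK were lost, though their sign held. ESO-26 held PDGFRA, the platelet-derived growth factor receptor of connective tissue cells, at 1233 CPM. The fibroblast growth factor receptors FGFR1 and FGFR2 were at 285 and 459.8 CPM there, and the neuregulin receptor ERBB4 at 10.6 CPM. In OE33, PDGFRA, FGFR1 and FGFR2 were at 0.415, 0.189 and 1.96 CPM and ERBB4 at 0 counts, and PDGFRA did not exceed 0.206 CPM in the other 7. The platelet-derived growth factor genes PDGFC and PDGFD were 122 and 530.4 CPM in ESO-26 and 13.6 CPM and 1 count in OE33. ESO-26 was above all of the other 7 for PDGFRA, PDGFC and PDGFD. Whether these growth factors act on PDGFRA in ESO-26 was not tested. The ligand PDGFA leaned to OE33, at 0.750 and 21.1 CPM.

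OE33 held a different set of receptors. EGFR was 6.11 in ESO-26 and 120.2 CPM in OE33, where the lowest of the other 7 held 106 CPM. ERBB2 was 10.4 and 149 CPM and ERBB3 1.96 and 14.1 CPM, and both lines lay below the other 7 for both genes. The Wnt co-receptors PTK7, ROR1 and ROR2 were 3.52, 0.346 and 0.404 CPM in ESO-26 against 261, 23.8 and 37.8 CPM in OE33. Receptors known from other tissues were expressed in OE33 above all of the other 7. RET, of neural crest cells, was 1 count in ESO-26 and 17.8 CPM in OE33, with at most 1.88 CPM elsewhere. FLT4, of lymphatic endothelium, and PDGFRB, of pericytes, had 0 counts in ESO-26 and 20.4 and 8.18 CPM in OE33. The TAM receptors AXL and MERTK were 33.6 and 1.38 CPM in ESO-26 against 159 and 23.8 CPM in OE33. MET, the hepatocyte growth factor receptor, was alike in both at 58.9 and 57.7 CPM, with 179.8 to 12506 CPM in the other 7. The insulin-like growth factor gene IGF2 had 0 counts in ESO-26 and 31.7 CPM in OE33, and the receptor IGF1R was 266 and 128 CPM and was not called.

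Of the SWI/SNF complexes, which slide and eject nucleosomes with the ATPase SMARCA4 or SMARCA2, a different subunit gene was low in each line. Of 26 measured subunit genes, 1 was higher in ESO-26 and 2 in OE33, and the median was -0.31. The share called, 11.5%, was near the 12.2% over all measured genes, so the list as a whole did not stand out. The core subunit SMARCB1 had 0 counts in ESO-26 and 48.3 CPM in OE33, where the other 7 held 20.3 to 62.2 CPM, so it was at least 279-fold higher in OE33. SMARCA4 was 165 CPM in ESO-26 against 12.7 CPM in OE33, against 76.2 to 227 CPM in the other 7. SMARCA2 was 14.7 and 3.51 CPM and was not called, but OE33 was the lowest of the 9 for it as for SMARCA4. The remaining call was BICRAL, a subunit of the GBAF form, at 4.84 in ESO-26 and 41.6 CPM in OE33. This call was lost in the authors' FPKM, with a difference of -1.28. The ESO-26 level was below the other 7 for 6 of the 26 subunits, among them SMARCC2 at 40.2 CPM and SMARCD1 at 24.3 CPM, and both lines were above the other 7 for SMARCD3, at 50.9 and 30.2 CPM.

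**Figure D4:**
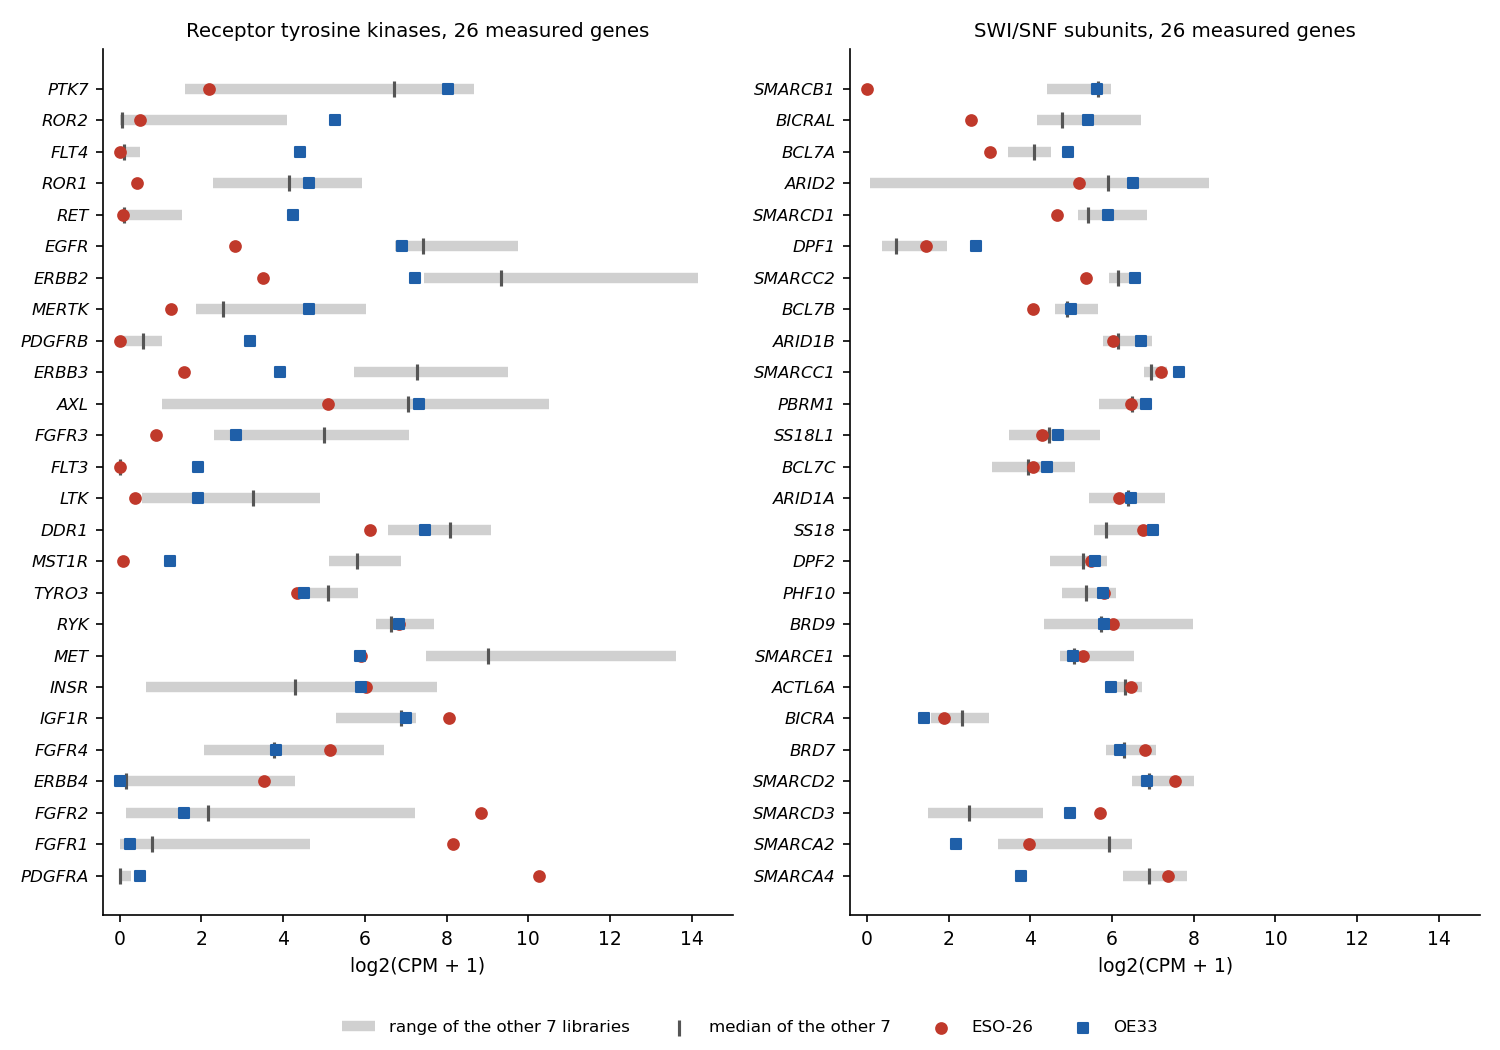
Levels of the 26 measured receptor tyrosine kinases (left) and the 26 measured SWI/SNF subunits (right) as log2(CPM + 1), with red circles for ESO-26, blue squares for OE33, a grey bar for the range of the other 7 libraries and a tick for their median. PDGFRA, FGFR1 and FGFR2 are high in ESO-26, SMARCB1 is at 0 in ESO-26, and SMARCA4 lies below the grey bar in OE33.

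The low epithelial state differed in its parts. Of 23 measured junction and adhesion genes, 11 were higher in OE33 and 2 in ESO-26, with a median of -1.98, and ESO-26 lay below all of the other 7 for 22 of them and OE33 for 14. Desmoplakin DSP was 9.17 CPM in ESO-26 against 507 CPM in OE33, within the 191 to 566 CPM of the other 7. The protease inhibitor SPINT2 was 11.2 and 477 CPM, the tight junction protein OCLN 18.5 and 130.2 CPM, and both also lay within the range of the other 7 in OE33. For CDH1, the E-cadherin gene, 3 counts were found in ESO-26 and 21.5 CPM in OE33, below the 77.8 CPM of the lowest other line. In the other direction, the desmosomal cadherin DSG2 was 46.1 in ESO-26 and 2.49 CPM in OE33, and EPCAM 5.13 and 0.189 CPM, below the other 7 in both lines.

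Keratins were called in both directions. Of 10 measured, 4 were higher in ESO-26 and 2 in OE33, with a median of 0.80. KRT8 and KRT18, which pair in simple epithelia, were 13.4 and 4.56 CPM in ESO-26 against 903 and 247 CPM in OE33, where KRT18 lay within the range of the other 7. KRT19, also a keratin of simple epithelia, went the other way at 138 CPM in ESO-26 against 15.99 CPM in OE33, both below the 789.7 CPM of the lowest other line. KRT16, KRT17 and KRT14, keratins of stratified epithelium and wounded skin whose reads may be shared, were 419.9, 328 and 31.8 CPM in ESO-26 against 0.302, 0.151 and 0.0754 CPM in OE33, and ESO-26 was above the other 7 for all 3. The basal factor TP63 had 0 counts in both libraries, and KRT5 had 0 counts in ESO-26 and 0.717 CPM in OE33. Against the description of ESO-26 as epithelial-low, the epithelial ETS factors EHF and ELF5 were at 790.3 and 171 CPM there, above the other 7, whose highest values were 616 and 13.3 CPM. In OE33, EHF was at 0.151 CPM and ELF5 at 0 counts. The splicing factor ESRP2 was 42.4 CPM in ESO-26, within the range of the other 7, and 6.94 CPM in OE33. The columnar factors GATA6 and FOXA1 were 49.4 and 14.7 CPM in ESO-26 against 0.377 and 0.867 CPM in OE33, whereas GATA4 was 4.04 and 23.2 CPM. The list of 8 columnar factors had 2 called each way, and its median of -1.17 changed sign with its mean (0.071), so the list as a whole had no stable direction.

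Mesenchymal genes were called in both directions, and most of the transcription factors and cytoskeletal genes were not called. Of 18 measured mesenchymal transcription factors, 2 were higher in ESO-26, 3 in OE33 and 13 not called, with a median of -0.47. Of 12 intermediate filament and mesenchymal cytoskeleton genes, 1 was higher in ESO-26, 3 in OE33 and 8 not called, with a median of -1.22. Fibronectin FN1 stood at 3591 CPM in ESO-26 against 4.22 CPM in OE33, COL3A1 at 311 and 0.226 CPM, and the matrix protein EFEMP1 at 1698 CPM and 1 count. The fibroblast matrix genes POSTN and DCN were 108 and 13.5 CPM in ESO-26, with 0 counts and 1 count in OE33 and at most 0.622 CPM for DCN in the other 7. Among the transcription factors, TWIST1 was 35.3 CPM in ESO-26 and 0 counts in OE33, and PRRX1 14.1 and 0.453 CPM. FOXC1, MEOX1 and MSX1 had 0 counts in ESO-26 and 45.4, 66.0 and 7.58 CPM in OE33. OE33 held other collagens and their proteases. COL6A2 had 1 count in ESO-26 and 321 CPM in OE33, and COL5A1 0 counts and 100.1 CPM. The gelatinase MMP2 had 0 counts in ESO-26 and 71.6 CPM in OE33, and the urokinase gene PLAU 0.288 and 543 CPM. Of 23 collagens, 4 were higher in ESO-26 and 10 in OE33. Of 34 matrix glycoproteins, 10 were higher in ESO-26 and 11 in OE33, and of 23 matrix proteases and inhibitors, 4 and 11. Vimentin VIM was 246 in ESO-26 and 616 CPM in OE33 and the repressor ZEB1 61.2 and 85.7 CPM, neither of them called, and ZEB1 was above the other 7 in both lines. N-cadherin CDH2 had 1 count in ESO-26 and 0 in OE33, while CDH4 and CDH6 were 114 and 51.3 CPM in ESO-26 against 0.981 CPM and 0 counts in OE33.

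Adhesion and mechanical signalling genes were mostly lower in ESO-26. Of 25 YAP and TEAD target genes, 11 were higher in OE33 and 1 in ESO-26, with a median of -1.88. YAP1, the transcriptional coactivator itself, was 28.3 CPM in ESO-26, below the other 7, and 159.7 CPM in OE33. The targets CCN2 and MYOF were 0.634 and 5.48 CPM in ESO-26 against 55.9 and 745 CPM in OE33. The caveolae genes CAV1 and CAVIN1 were 5.59 and 39.1 CPM against 225 and 768 CPM. The hyaluronan receptor CD44 had 4 counts in ESO-26 and 289 CPM in OE33, with 4.82 to 738 CPM in the other 7. Exceptions were moesin MSN, which links membrane and actin, at 195 CPM in ESO-26 against 0.377 CPM in OE33, and CAVIN2 at 13.3 CPM and 0 counts. In the TGF-beta and BMP pathway 4 of 47 genes were higher in ESO-26 and 11 in OE33. The receptors TGFBR2 and TGFBR3 were 3.58 and 3.00 CPM in ESO-26 against 33.6 and 225 CPM in OE33, whereas the BMP target genes ID3 and ID4 were 423 and 134 CPM in ESO-26 and 13.6 CPM and 0 counts in OE33. Wnt pathway genes were called only toward OE33, 8 of 32, and included the secreted inhibitor DKK1 at 2 counts in ESO-26 and 16.6 CPM in OE33.

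Germline genes were called mainly toward OE33. Of 11 measured cancer-testis antigens, 9 were higher in OE33 and 1 in ESO-26, with a median of -5.88, and of 18 germline and piRNA genes 7 and none. Before the filter of 1 CPM there were 47 antigens, 36 of them at 0 counts in ESO-26 and 24 in OE33. The median of -5.88 describes only the 11 that passed this filter. Summed levels of the antigens differed little, with ESO-26 at 898 CPM against 1044 CPM for OE33. These sums do not show that similar antigens were expressed, because a sum can rest on few genes. Only 1 antigen was called higher in ESO-26, and FAM9C alone, described below, stood at 844 CPM there. MAGEA4 had 3 counts in ESO-26 and 328 CPM in OE33, and PRAME 1 count and 326 CPM. MAGEA3, MAGEA6, MAGEA2B and MAGEA12 had 0 counts in ESO-26 and 69.2, 57.9, 70.8 and 6.07 CPM in OE33, with reads that may be shared among them. The second list joins germline genes with genes of the piRNA pathway, which silences transposons in germ cells. Its called members included TDRD12 at 0.346 in ESO-26 and 788 CPM in OE33, and TDRD9, MEIOB and MAEL at 84.7, 62.6 and 41.0 CPM in OE33. OE33 was above the other 7 for each of these 4, but the germ cell markers DDX4, DAZL, POU5F1 and NANOG summed to 0.415 CPM there. ESO-26 instead held FAM9C, an X-linked testis gene, at 844 CPM against 3 counts in OE33, and the early germ cell gene DPPA3 at 153 CPM against 0 counts.

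Patterning genes also separated the lines. Of 15 measured anterior and central HOX genes, which set position along the body axis, 2 were higher in ESO-26 and 6 in OE33, and of 11 posterior ones 1 and 5. HOXB9 had 0 counts in ESO-26 and 42.7 CPM in OE33, HOXA9 0 counts and 14.6 CPM, and HOXC6 0.692 and 38.0 CPM, with OE33 above the other 7 for each. HOXD13 and HOXD8 went the other way, at 17.2 and 12.1 CPM in ESO-26 and 0 counts in OE33. Neural genes leaned to OE33. Of 15 measured neural and neuroendocrine genes, 6 were higher in OE33 and 3 in ESO-26, with a median of -2.12, and OE33 was above all of the other 7 for 7 of them. The deubiquitinase UCHL1 was 1.61 CPM in ESO-26 against 212 CPM in OE33, and the neuronal microtubule protein MAP2 2.25 and 18.9 CPM. The neurofilament NEFH, of the cytoskeleton list, was 0.231 and 139 CPM. The synaptic adhesion gene NLGN1 went the other way, at 38.7 CPM in ESO-26 and 1 count in OE33. Of 12 neural crest, glial and melanocyte genes, 2 were higher in ESO-26 and 4 in OE33. Those higher in ESO-26 were the eye and brain factor PAX6 at 40.5 and 1.21 CPM and SCRG1, a secreted protein of cartilage and brain, at 2179 and 0.603 CPM. Those higher in OE33 included the proteoglycan CSPG4 at 0.288 and 73.0 CPM.

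Growth control genes differed in a few members. Of 27 genes of G1 control, 3 were called each way. CDK6, a kinase that phosphorylates RB1, was 1548 CPM in ESO-26, above the other 7, and 203 CPM in OE33, and MYCN, a MYC family factor of embryonal tumours, was 66.3 and 0.377 CPM. The inhibitor CDKN1A (p21) was 0.923 CPM in ESO-26 against 35.2 CPM in OE33, and the 39.2 CPM of the lowest other line was above both. Of 31 replication and mitosis genes, 27 were higher in ESO-26 in the sign of the difference, with a median of 0.79, but only CCNA2 at 187 and 34.8 CPM and CENPE at 193 and 46.0 CPM were called. The CENPE call ended when libraries were scaled by their size alone.

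Called genes were not spread evenly over the chromosomes. Among 10911 protein-coding genes that reached 5 CPM in either library, 663 were higher in ESO-26 and 1103 in OE33, and 72 runs of 3 or more neighbours were called in 1 direction. On chromosome 22, 81 of 272 genes (29.8%) were higher in OE33 and 4 higher in ESO-26. Most of the genes higher in OE33 lay in its first stretch. From IL17RA to DERL3, 52 of 64 genes were higher in OE33 and none in ESO-26, 63 of 64 were lower in ESO-26 in sign, and the median was -2.76. In the 208 genes after DERL3 the counts were 29 and 4 and the median -0.12. The end of the stretch was chosen after the values were seen. Within it, ESO-26 was below the other 7 for 39 genes and OE33 above them for 27, and the median distance from the median of the other 7 was -1.05 for ESO-26 and 1.51 for OE33. Many calls of the stretch were lost in the authors' FPKM, though their sign held. Among them were BID (-1.68), MICAL3 (-1.05), BCR (-1.25) and TOP3B (-1.05).

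The last 10 genes of the stretch were nearly silent in ESO-26. PPM1F, TOP3B, GNAZ, RAB36, BCR, CHCHD10, MMP11, SMARCB1 and DERL3 had 0 to 2 counts each in ESO-26, and ESO-26 was below all of the other 7 for these 9. The exception was PRAME, with 1 count in ESO-26 and a median of 0.0496 CPM in the other 7. In OE33 PPM1F was 73.7 CPM, TOP3B 34.4 CPM and BCR 51.0 CPM. The earlier genes of the stretch were expressed in both lines, as for IL17RA, an interleukin-17 receptor chain, at 8.65 and 97.9 CPM, and BID, a BCL2 family member, at 12.1 and 96.3 CPM. DNA copy number was not measured, so a change in gene dose cannot be told apart from a change in transcription.

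Chromosome 4 leaned to ESO-26. Of 387 genes, 73 (18.9%) were higher in ESO-26 and 15 in OE33, with a median of 1.08. The median distance from the median of the other 7 was 0.29 in ESO-26 and -0.68 in OE33. The longest run held 8 genes, GALNT7, HMGB2, SAP30, SCRG1, FBXO8, CEP44, GPM6A and WDR17. The chromatin protein HMGB2 was 933 in ESO-26 and 72.3 CPM in OE33, FBXO8 360.2 and 8.07 CPM and SAP30 268 and 15.7 CPM, with ESO-26 above the other 7 for each. The GALNT7 call ended with scaling by library size alone. PDGFRA lay in a run with CHIC2 at 46.9 and 3.77 CPM and the homeobox gene GSX2 at 91.7 CPM and 0 counts. Other runs joined genes of 1 family, such as IFIT2, IFIT3 and IFIT1, OAS1, OAS3 and OAS2, HOXB5 to HOXB9 and 8 neighbours on the X chromosome with 6 MAGEA genes toward OE33, and the AKR1C genes toward ESO-26.

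**Figure D5:**
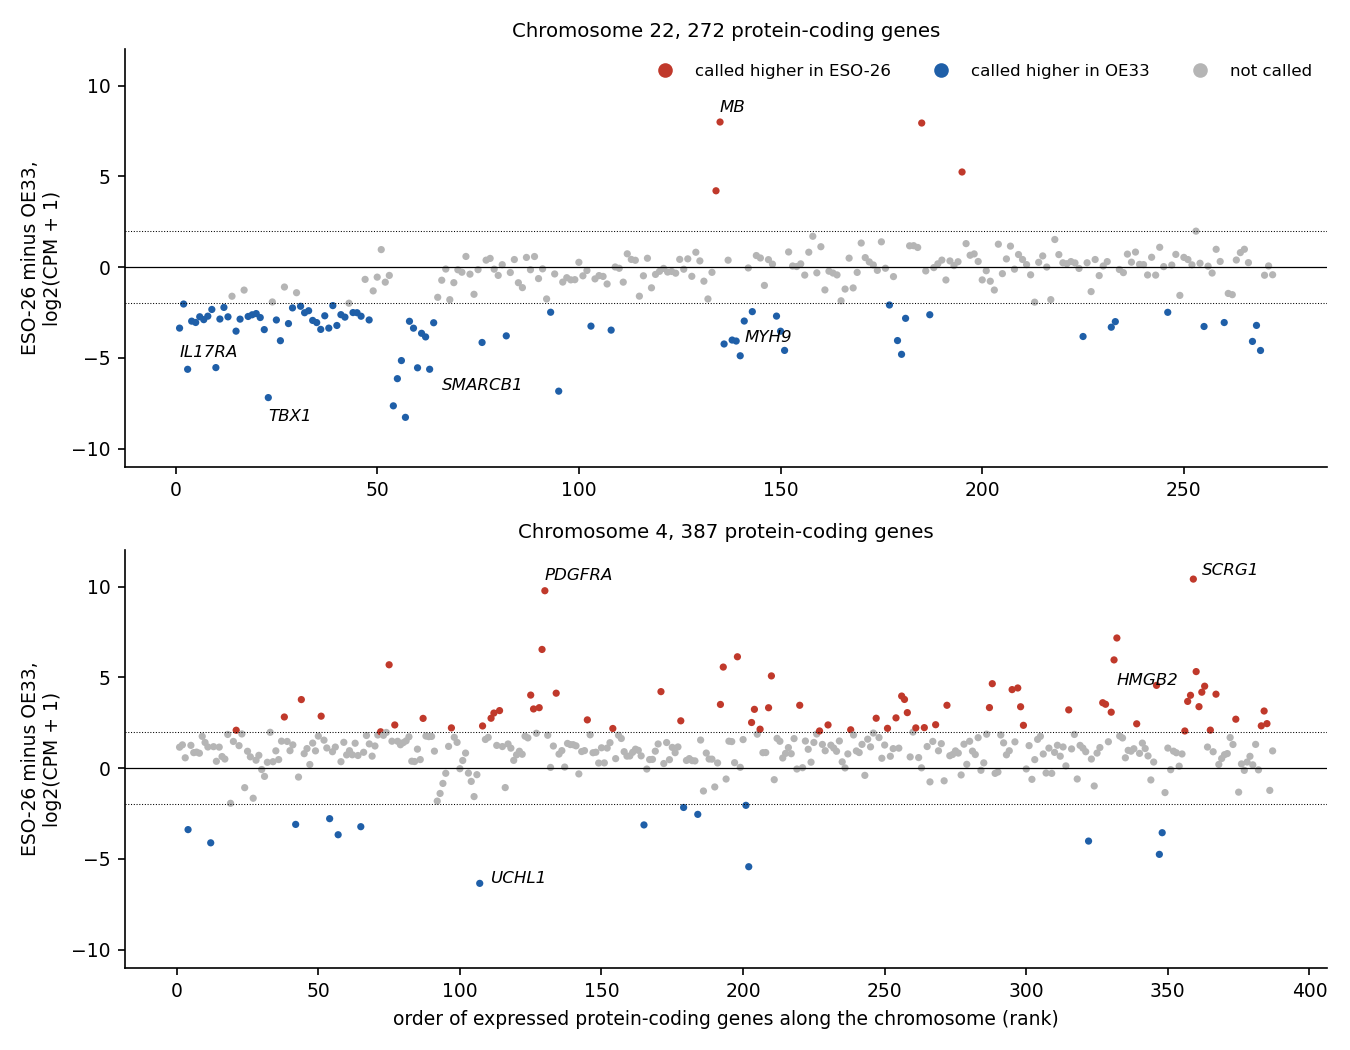
Difference between the libraries (ESO-26 minus OE33, log2(CPM + 1)) for the expressed protein-coding genes of chromosome 22 (272 genes, top) and chromosome 4 (387 genes, bottom), in their order along the chromosome, with dotted lines at 2 and -2. The first 64 genes of chromosome 22 lie almost all below 0, with 52 called higher in OE33, and most points of chromosome 4 lie above 0.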

How the data were processed

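RNA of 9 established lines was sequenced, with 1 library per line in the deposited table. The submitters' processing notes name STAR 2.6.1d, FastQC 0.11.7, R 3.6.1 and build GRCh37 among the authors' tools. The counter, annotation and strandedness are not given in the sources used here, so reads of overlapping or antisense genes cannot be told apart. The deposited table holds raw counts per gene symbol for 52158 genes, and the authors also deposited counts and FPKM per identifier for each line. A row without a name took under 0.01% of the counts and was left out.

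Library sizes were scaled with TMM factors (edgeR 4.0.16, R 4.3.3) computed over genes at 1 CPM in at least 2 libraries, 1.032 for ESO-26 and 1.097 for OE33. Differences used log2(CPM + 1). With 1 library per line no test was run. A call needed a difference of 2 and 5 CPM in the higher library. The call rule recovered 200 of 200 genes changed in simulated counts and called 0 of the others among 7371 genes. The simulation held fewer genes than the 15634 measured, all well expressed in OE33. Its changes were set well above the cut and its noise was counting error alone, so full recovery was built in. Weakly expressed genes and changes near the cut were not tried. The simulation gives no error rate for the real calls, because variation between replicate libraries of a line was not measured. Counting intervals are exact at 95%, except Wilson intervals for shares of counts. The limit of 3 counts set for a count of 0 lies below the upper end of such an exact interval. Ratios given as at least a value use this limit without counting error of the higher library, so they are not 95% bounds. Gene order came from an annotation of another build and was used for order only. Of 1571 listed symbols 1552 were in the table. The named genes are the 15 protein-coding and 5 noncoding genes with the largest called difference each way, up to 4 called members of each list each way, all called SWI/SNF subunits and receptor tyrosine kinases, the cell type markers and members of runs, plus genes said to be chosen later. Some genes are not reported here. Members and lists were chosen with earlier results of these data known. Alternatives were another pseudocount, scaling (DESeq2 1.42.0 size factors, library size alone, TMM over the 2 libraries, no mitochondrial genes), difference and CPM minimum, the authors' FPKM, and, chosen after seeing the data, FPKM rescaled to equal sums. Python 3.11.15 was used.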

Additional observations from a re-analysis of the deposited data

Results flagged for a closer look

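Part of each library's signal lies outside the gene table that was compared. The per-line files list identifiers that the table does not hold. These took 25.8% of the ESO-26 counts (Wilson 95% interval 25.8276 to 25.8636) and 47.2% of the OE33 counts (47.2267 to 47.2557), above the limit set for a count of 0. A single identifier took 12.4% of the file counts in ESO-26 and 29.6% in OE33, and another 4.69% and 14.1%. What these identifiers are was not tested, and none of these counts entered the comparison.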

How the results depend on the processing

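No paired analysis was possible because each line has 1 library and the labels give no replicate numbers. Genes higher in ESO-26 (751) and in OE33 (1163) became 424 and 603 with a pseudocount of 5, 1931 and 2433 with a difference of 1, 430 and 627 with a difference of 3, 454 and 695 with a minimum of 20 CPM, 420 and 291 in the deposited FPKM, and 277 and 419 with FPKM rescaled to equal sums, which was chosen after seeing the data. The share higher in ESO-26 moved from 39.24% to 59.07% in the deposited FPKM but was 39.8% with rescaled FPKM. Genes higher in OE33 with ESO-26 below the other 7 (567) became 308 with a pseudocount of 5, 1066 with a difference of 1, 312 with a difference of 3 and 357 with a minimum of 20 CPM, and runs (72) became 280 with a difference of 1. Lists at -1 or lower (22) and at 1 or higher (2) became 7 and 1 with a pseudocount of 5, 10 and 8 in the deposited FPKM, and 5 and 1 over all members in the table, and by the mean 5 lists reached 1. Columnar transcription factors changed sign to 1.17 in the deposited FPKM, 0.071 by the mean and 0.064 over all members. Pluripotency genes changed to 1.12 and haematopoietic markers to 0.78 in the deposited FPKM, and to 0.97 and 0.59 with rescaled FPKM. The cause of these changes was not tested, beyond the looser or stricter thresholds themselves. Of 502 named called genes none changed sign under any scaling, pseudocount or FPKM setting and 214 kept the call in all of them. The call was lost by 151 with a pseudocount of 5, 261 in the deposited FPKM, 252 with rescaled FPKM, 6 with library size alone (AKR1E2, ARMCX5, CENPE, GALNT7, MIPOL1 and RAD51B), 6 without mitochondrial genes and 1 (HDHD5) with TMM over the 2 libraries. Depth limits weakly expressed genes: in ESO-26 1 count is 0.0577 CPM.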

Other observations

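Other gene families, looked at after their values were seen, also leaned to 1 line. Of 187 measured numbered zinc finger genes (ZNF) on chromosome 19, most of which encode repressors of the KRAB type, 30 were higher in ESO-26 and 3 in OE33, with a median of 0.78, against 4.8% and 7.44% over all genes. Of the 208 elsewhere, 11 and 7 were called and the median was -0.05. The chromosome 19 median ranged from 0.38 to 0.84 over the scaling, pseudocount and FPKM settings, but with FPKM rescaled to equal sums 1 gene was called each way. ZNF850 was 18.9 CPM in ESO-26 with 1 count in OE33, and ZNF529 was 20.6 against 0.453 CPM, the latter below the other 7. Neighbours on this chromosome were called together, such as ZNF772, ZNF419, ZNF773, ZNF549 and ZNF550. Of 76 cytosolic ribosomal protein genes, 68 were higher in ESO-26 in sign with a median of 0.94 (0.80 to 1.32 over the settings), 3 and 1 were called, and ESO-26 was above all of the other 7 for 50.

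S100 genes and annexins, calcium-binding proteins, were called 4 each way of 18. S100A4, a marker of fibroblasts and motile cells, was 1029.9 CPM in ESO-26 against 73.2 in OE33, and S100A11 had 4 counts in ESO-26 and 125 CPM in OE33, with 98.6 CPM in the lowest other line. The X-linked neighbours ARMCX2 and ARMCX6 had 0 counts in OE33, below the other 7, and 63.3 and 21.6 CPM in ESO-26. Interferon-related neighbours outside the list used above were low in ESO-26 too. PARP9, DTX3L and PARP14 were 1.38, 3.17 and 10.4 CPM there against 102, 159 and 279 in OE33, and ESO-26 was below the other 7 for all 3. The cell cycle regulator RGCC had 0 counts in OE33 and 469 CPM in ESO-26, at least 4142-fold higher, and the small heat shock protein CRYAB had 1 count in OE33 and 733 CPM in ESO-26. MBNL2, a splicing regulator, was 0.519 CPM in ESO-26, below the other 7, and 464 in OE33, above them.

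Among noncoding genes the largest differences toward ESO-26 were in AC012499.1 (65.9 CPM), AC012055.1 (45.3 CPM), LINC02268 (36.3 CPM) and MSC-AS1 (35.8 CPM), each at 0 counts in OE33, and in the ribosomal pseudogene RPS28P7 (118 against 2.53 CPM), whose reads may belong to its parent gene. Toward OE33, AC108676.1 (49.9 CPM), LINC00839 (40.2 CPM) and the metallothionein pseudogene MT1L (27.0 CPM) were at 0 counts in ESO-26, and C5orf34-AS1 (47.4 CPM) had 3 counts there. The strand setting is not known, so the antisense genes MSC-AS1, AC012499.1 and C5orf34-AS1 cannot be told apart from their partners.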
